A study of Mus musculus with 12 samples.

Results

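The p53 module described here is the gene of the transcription factor p53 itself, Trp53, its inhibitors Mdm2 and Mdm4, and 29 genes known as p53 targets. The 32 members were chosen by symbol from a named list, out of 46403 genes in the count table, and all 32 were found and passed the filter on low counts that left 23742 genes for testing. RNA of entire right kidneys was sequenced in 12 libraries of 3 genotypes, in a study whose title links Grhl2, an epithelial transcription factor, to renal cysts. Grhl2KO_Myc kidneys (n = 4) combined knockout of Grhl2 with Myc overexpression and came from crosses of HoxB7-Cre; Grhl2flox/+ mice with R26StopFLMYC; Grhl2flox/flox mice. HoxB7-Cre is active in cells of the ureteric bud, which form the collecting ducts, so cells outside that lineage should keep intact Grhl2 alleles and the stop cassette that silences the transgene. Myc kidneys (n = 3) are labelled as Myc overexpression, without a stated cross or Grhl2 genotype. Their library identifiers hold HET, where those of the other groups hold KO and WT, and the labels do not explain HET. Wildtype kidneys (n = 5) are defined by the labels as R26StopFLMYC; Grhl2 flox/flox, so they carry the floxed alleles and the silent transgene too. No mice were treated. Age and sex are not stated, nor whether each library of a group is a different mouse, so the p-values cover the spread between these samples, which may be technical.

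p53 is made in most cells and is held at a low protein level by Mdm2, which marks it for degradation, while Mdm4 blocks its activity. DNA damage, nucleolar stress and the activity of oncogenes such as Myc are known to free p53 from both inhibitors. It then switches on genes that halt the cell cycle, repair DNA, adjust metabolism or lead to cell death, and it switches on Mdm2, which closes the loop. Because this control acts largely on the protein, the transcript levels below are a readout of the targets rather than of p53 protein. In whole-kidney RNA, fewer cells of a type and less RNA per cell cannot be told apart.

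The sequences below show the promoters of 3 members that rose in Grhl2KO_Myc kidneys (Trp53, Aen and Tigar) and of Mdm2 and Cdkn1a, which did not pass the test. Letters matching at least 1 p53 half-site, which is only a part of a full p53 site, lie in all of them except Tigar. Each line gives the RefSeq promoter on GRCm38.p6, the assembly known as mm10, from 250 bases before the annotated start to 30 bases after it. Capitals mark matches to the p53 half-site consensus and, in Trp53, the E-box CACGTG, the sequence that Myc and its partner Max are known to bind.
Trp53 (chr11:69580109-69580388, plus strand): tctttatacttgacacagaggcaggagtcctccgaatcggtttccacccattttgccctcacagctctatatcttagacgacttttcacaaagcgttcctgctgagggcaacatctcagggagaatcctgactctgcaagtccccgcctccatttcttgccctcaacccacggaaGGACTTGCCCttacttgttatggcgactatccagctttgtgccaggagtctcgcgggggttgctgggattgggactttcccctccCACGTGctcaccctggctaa
Aen (chr7:78895677-78895956, plus strand): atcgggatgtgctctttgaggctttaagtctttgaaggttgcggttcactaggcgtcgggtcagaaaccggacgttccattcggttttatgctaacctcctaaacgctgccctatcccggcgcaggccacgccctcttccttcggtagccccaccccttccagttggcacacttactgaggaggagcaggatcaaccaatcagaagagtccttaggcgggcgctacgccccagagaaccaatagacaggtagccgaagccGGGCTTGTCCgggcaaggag
Tigar (chr6:127109523-127109802, minus strand): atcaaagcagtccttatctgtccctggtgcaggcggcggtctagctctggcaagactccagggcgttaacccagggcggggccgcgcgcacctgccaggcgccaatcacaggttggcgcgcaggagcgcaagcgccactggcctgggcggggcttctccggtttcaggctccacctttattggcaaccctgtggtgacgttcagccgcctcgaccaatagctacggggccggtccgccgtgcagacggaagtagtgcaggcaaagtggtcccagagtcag
Mdm2 (chr10:117710729-117711008, minus strand): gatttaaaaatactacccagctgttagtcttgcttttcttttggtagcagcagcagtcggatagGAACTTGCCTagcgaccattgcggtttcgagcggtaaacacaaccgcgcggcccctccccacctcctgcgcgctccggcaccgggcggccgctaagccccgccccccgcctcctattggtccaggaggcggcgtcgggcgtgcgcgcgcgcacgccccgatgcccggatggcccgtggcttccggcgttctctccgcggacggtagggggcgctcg
Cdkn1a (chr17:29090729-29091008, plus strand): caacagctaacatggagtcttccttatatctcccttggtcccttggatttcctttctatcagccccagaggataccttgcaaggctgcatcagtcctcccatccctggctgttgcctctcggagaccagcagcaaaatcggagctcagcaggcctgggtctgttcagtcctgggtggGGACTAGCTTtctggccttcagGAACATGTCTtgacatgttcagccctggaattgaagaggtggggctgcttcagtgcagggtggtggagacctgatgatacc
Counting the annotated start as base 1, the half-site of Aen began at base 11. The same half-site lies upstream of the second annotated start of Aen, whose promoter, not printed, also held an E-box. In Trp53 a half-site began 75 bases before the start and the E-box at base 11. The Mdm2 half-site began 186 bases before the start, the Cdkn1a stretch held half-sites at 73 and 51 bases before its start, and the Tigar stretch held neither motif. The Cdkn1a stretch belongs to the more distant of 2 annotated starts, which lie 2790 bases apart. RefSeq promoters of 300 bases, 250 before and 50 after the start, were present for 24 of the 32 members, and those of Ddb2, Perp, Pmaip1, Rrm2b, Tnfrsf10b, Trp53inp1, Xpc and Zmat3 were not used here. On both strands, 10 of the 24 genes (41.7%) held a half-site in at least 1 promoter, against 9.55% of all 27025 genes with a promoter. The 10 were Trp53, Mdm2, Cdkn1a, Ccng1, Gadd45a, Bax, Ei24, Aen, Sesn1 and Polk. An E-box lay in the promoter of 7 of the 24 (29.2%), against 8.09% of all genes, namely Trp53, Bax, Bbc3, Fas, Eda2r, Aen and Gdf15. The 2 motifs overlapped in 0 of the 34 promoters of members, whose median GC content was 60.0%, against 52.7% over all promoters. These shares describe letters in a short window and were not tested, and no binding was measured.

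Expression is given in CPM, a gene's count scaled to a common library size with TMM factors, with the SD over libraries after ±. Each log2 fold change has its standard error (SE), and a gene passed at an adjusted p under 0.05. Total counts lay between 75187006 and 108164810 in Grhl2KO_Myc, between 70608817 and 101043826 in Myc and between 52973520 and 98713157 in wildtype libraries. Grhl2 was at 21.0 ± 2.78 CPM in Grhl2KO_Myc and 29.9 ± 2.71 CPM in Myc kidneys (log2 fold change -0.51, SE 0.10, edgeR adjusted p = 0.044), with 25.8 ± 2.04 CPM in wildtype kidneys. All markers of proximal tubule, thick limb, distal tubule, collecting duct and podocytes were detected. Under 0.1 CPM on average were 1 of 5 adrenal and fat markers (Cyp11b1) and 1 of 8 leukocyte markers (Cd3e of T cells). The other 4 adrenal and fat markers summed to 5.38 to 8.45 CPM in Grhl2KO_Myc, 5.55 to 12.4 CPM in Myc and 5.33 to 10.6 CPM in wildtype libraries. The 20 proximal tubule markers summed to 1589 and 1670 CPM in Grhl2KO_Myc 3 and 4 and to 1475 CPM in wildtype 4, against 3327 to 5662 CPM in the other 9 libraries. Y-linked Ddx3y was above 10 CPM in Grhl2KO_Myc 1 and 4, Myc 3 and wildtype 5 only. Each group thus held libraries on both sides of this level, and sex may differ within the groups.

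Levels per length of transcript were compared in RPKM, the CPM per kilobase of gene width in the table, averaged over the 12 libraries. Bax stood first among the members at 41.7 RPKM, followed by Ei24 at 33.7, Dcxr at 31.6 and Trp53 at 26.7 RPKM. Cdkn1a ranked 6th at 19.0 RPKM, Mdm2 12th at 10.8, Aen 18th at 5.74, Zmat3 24th at 3.15 and Tigar 29th at 2.11 RPKM. Eda2r was lowest at 0.231 RPKM, with 56 to 208 reads per library. Spread within a group was uneven: Ei24, Ddb2 and Xpc varied by no more than 5.72% of their mean in any group, and Plk3 by 53.8% in wildtype and 45.8% in Grhl2KO_Myc kidneys.

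The first comparison, Grhl2KO_Myc against wildtype, covers knockout and overexpression together. Trp53 and 3 of its targets rose by 1.16-fold to 1.41-fold: Aen, an apoptosis-enhancing nuclease, Tigar, an enzyme that slows glycolysis, and Zmat3, an RNA-binding zinc finger protein that affects splicing. Trp53inp1, a stress-induced protein of autophagy and cell death, was 1.29-fold lower. The best known readouts of p53, Cdkn1a and Mdm2, did not pass the test. Together 5 of 32 members passed, 4 higher and 1 lower, or 15.6%, where 6.67% of all tested genes passed (4.06% higher, 2.61% lower). The members were chosen with earlier results of these data known, so these shares are a description and the list was not tested. At an unadjusted p under 0.05 there were 10 of 32 members, where 22% of all tested genes had such a p. The median log2 fold change was 0.037 over the members and -0.0074 over all tested genes, and 20 of 32 members were above 0, where 48.5% of all tested genes were.

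**Figure D1:**
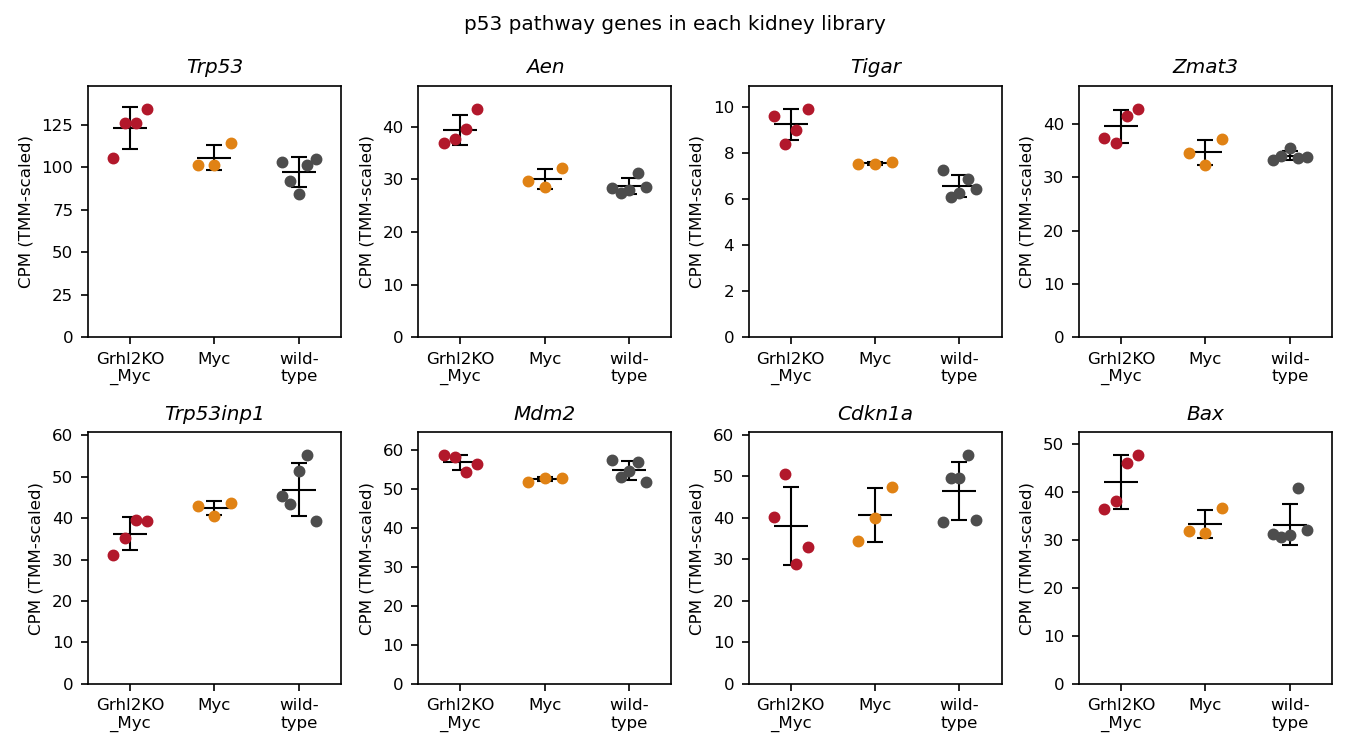
Level of 8 members in each library (CPM, TMM-scaled, linear axes from 0); points are libraries, bars are the mean ± SD of Grhl2KO_Myc (n = 4), Myc (n = 3) and wildtype (n = 5). The 4 Grhl2KO_Myc libraries lie above all wildtype libraries for Trp53, Aen, Tigar and Zmat3, and the groups overlap for Trp53inp1, Mdm2, Cdkn1a and Bax.

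Aen (mm10 chromosome 7, 78895854 to 78911209, plus strand) had values of 36.9, 37.7, 39.6 and 43.4 CPM in Grhl2KO_Myc libraries 1 to 4, against 28.4, 27.4, 27.9, 31.3 and 28.6 CPM in wildtype libraries 1 to 5. Every Grhl2KO_Myc library was above every wildtype library, and the highest wildtype value was that of wildtype 4. Aen rose 1.37-fold (39.4 ± 2.90 in Grhl2KO_Myc and 28.7 ± 1.50 CPM in wildtype, log2 fold change 0.46, SE 0.062, edgeR adjusted p = 0.0012). The call held in all 23 alternative analyses, with adjusted p between 1.4e-08 and 0.0063.

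Tigar (chromosome 6, 127085116 to 127109557, minus strand) had values of 9.63, 8.41, 9.02 and 9.92 CPM in Grhl2KO_Myc libraries 1 to 4, against 7.25, 6.08, 6.25, 6.89 and 6.46 CPM in wildtype libraries 1 to 5. The groups did not overlap, and Tigar rose 1.41-fold (9.24 ± 0.672 in Grhl2KO_Myc and 6.58 ± 0.477 CPM in wildtype, log2 fold change 0.49, SE 0.075, edgeR adjusted p = 0.0027). This call also held in all 23 alternatives (adjusted p 1.4e-07 to 0.019). The kit does not mark strand, and 122 bases of Tigar exons are shared with antisense Platr31, which was at 0.317 ± 0.0870 CPM in Grhl2KO_Myc and 0.238 ± 0.0608 CPM in wildtype kidneys.

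Trp53 (chromosome 11, 69580359 to 69591873, plus strand) had values of 105.8, 126, 126 and 135 CPM in Grhl2KO_Myc libraries 1 to 4. In wildtype libraries 1 to 5 it was at 103, 92.0, 84.1, 101 and 105 CPM. All Grhl2KO_Myc libraries were above all wildtype libraries, but Grhl2KO_Myc 1 exceeded wildtype 5 by little. Trp53 rose 1.27-fold (123 ± 12.2 in Grhl2KO_Myc and 97.1 ± 8.80 CPM in wildtype, log2 fold change 0.34, SE 0.081, edgeR adjusted p = 0.027). The call was lost without Grhl2KO_Myc 2 (adjusted p = 0.061), 3 (0.077) or 4 (0.088) or wildtype 2 (0.074) or 3 (0.063), with a term for Ddx3y (0.057) and in a fit of only these 2 groups (0.053). Without the 3 libraries low in proximal tubule transcripts the log2 fold change was 0.27 (adjusted p = 0.13).

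Zmat3 (chromosome 3, 32334792 to 32366014, minus strand) had values of 37.5, 36.5, 41.6 and 42.9 CPM in Grhl2KO_Myc libraries 1 to 4, against 33.2, 34.0, 35.5, 33.7 and 33.8 CPM in wildtype libraries 1 to 5. The groups did not overlap, and the 2 highest values were those of Grhl2KO_Myc 3 and 4. Zmat3 rose 1.16-fold (39.6 ± 3.13 in Grhl2KO_Myc and 34.0 ± 0.850 CPM in wildtype, log2 fold change 0.22, SE 0.059, edgeR adjusted p = 0.047). This call stood in 6 of 23 alternatives; among single libraries left out it stood only without Grhl2KO_Myc 2 or wildtype 4, and the adjusted p reached 0.14 without Grhl2KO_Myc 4. Without the 3 libraries low in proximal tubule transcripts the log2 fold change was 0.11 (adjusted p = 0.30).

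Trp53inp1 (chromosome 4, 11156431 to 11174379, plus strand) had values of 31.1, 35.1, 39.5 and 39.3 CPM in Grhl2KO_Myc libraries 1 to 4, against 45.3, 43.5, 51.3, 55.2 and 39.3 CPM in wildtype libraries 1 to 5. Wildtype 5 lay within the range of the Grhl2KO_Myc libraries. Trp53inp1 fell 1.29-fold (36.2 ± 4.00 in Grhl2KO_Myc and 46.9 ± 6.35 CPM in wildtype, log2 fold change -0.37, SE 0.099, edgeR adjusted p = 0.044). The call stood in 10 of 23 alternatives and among single libraries left out only without wildtype 4 or 5, with adjusted p up to 0.10 without Grhl2KO_Myc 1.

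The inhibitor Mdm2 was measured at 58.7, 58.2, 54.4 and 56.5 CPM in Grhl2KO_Myc libraries 1 to 4, against 57.4, 53.2, 54.8, 57.0 and 51.9 CPM in wildtype libraries 1 to 5. The groups overlapped, with a log2 fold change of 0.05 (SE 0.043, 95% interval -0.039 to 0.15, edgeR adjusted p = 0.50). Cdkn1a, which encodes the cyclin-dependent kinase inhibitor p21, was measured at 40.1, 50.5, 28.9 and 33.0 CPM in Grhl2KO_Myc libraries 1 to 4, against 38.9, 49.5, 49.6, 55.1 and 39.6 CPM in wildtype libraries 1 to 5. The groups overlapped and Cdkn1a was lowest in Grhl2KO_Myc 3 and 4 and highest in wildtype 4, the 3 libraries low in proximal tubule transcripts. Its log2 fold change was -0.29 (SE 0.16, 95% interval -0.64 to 0.061, edgeR adjusted p = 0.32), and 0.023 without those 3 libraries (adjusted p = 0.95). Mdm4 was at 137 ± 3.70 in Grhl2KO_Myc and 148 ± 13.3 CPM in wildtype (adjusted p = 0.42).

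**Figure D2:**
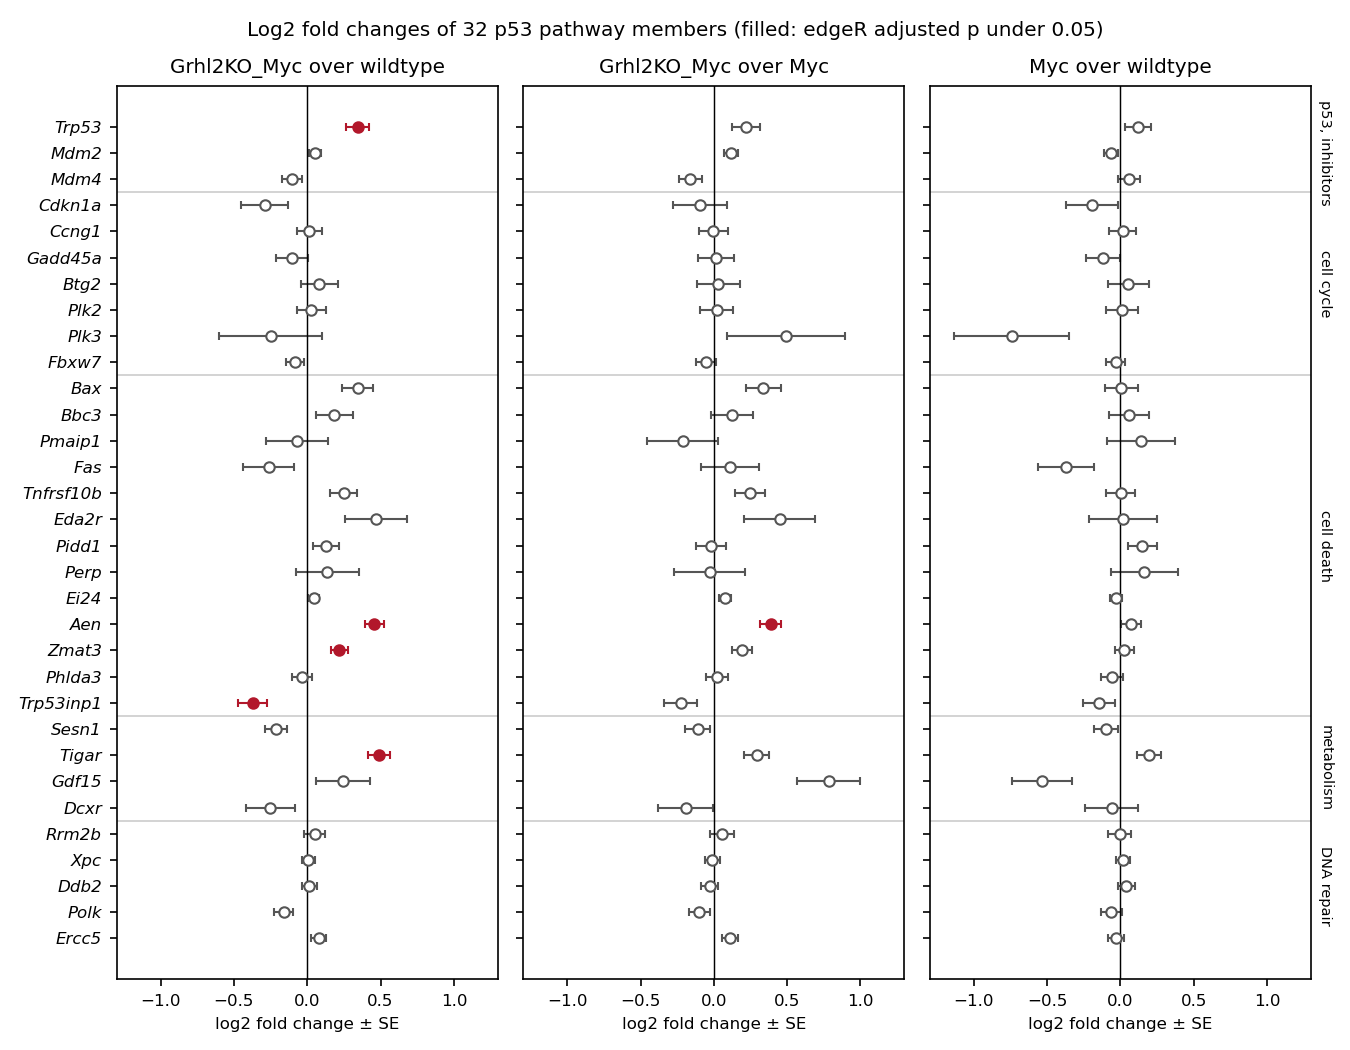
Log2 fold change ± SE of the 32 members in 3 comparisons, ordered by role; filled red points have an edgeR adjusted p under 0.05. Filled points are Trp53, Aen, Zmat3, Trp53inp1 and Tigar on the left, Aen alone in the middle and none on the right.

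Among the 7 members that act on the cell cycle 0 passed in Grhl2KO_Myc against wildtype, also at an unadjusted p under 0.05, and their median log2 fold change was -0.086. Of all tested genes 6.67% passed and 22% had such a p, so a count over 7 genes says little. Cyclin G1 (Ccng1) was at 68.6 ± 2.74 in Grhl2KO_Myc and 68.0 ± 7.68 CPM in wildtype, and the polo-like kinase Plk2 was at 49.8 ± 1.95 in Grhl2KO_Myc and 48.8 ± 6.84 CPM in wildtype. The growth arrest genes Gadd45a (20.9 ± 1.22 in Grhl2KO_Myc and 22.5 ± 3.71 CPM in wildtype) and Btg2 (29.1 ± 3.73 in Grhl2KO_Myc and 27.5 ± 3.98 CPM in wildtype) also overlapped between the groups. Fbxw7, the ubiquitin ligase subunit through which Myc protein is degraded, was at 20.2 ± 1.12 in Grhl2KO_Myc and 21.5 ± 1.22 CPM in wildtype (adjusted p = 0.45). Plk3 was at 12.6 CPM in Grhl2KO_Myc 2 and at 10.5 and 17.0 CPM in wildtype 3 and 4, against 4.75 to 7.50 CPM in the other 9 libraries.

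Of the 13 members that serve cell death 2 rose (Aen and Zmat3), 1 fell (Trp53inp1) and 10 did not pass. Of all tested genes 4.06% rose and 2.61% fell. The mitochondrial pore protein gene Bax was measured at 36.6, 38.2, 46.1 and 47.7 CPM in Grhl2KO_Myc libraries 1 to 4, against 31.3, 30.7, 31.1, 40.8 and 32.1 CPM in wildtype libraries 1 to 5. Wildtype 4 stood apart from the other wildtype libraries and inside the Grhl2KO_Myc range. The log2 fold change of Bax was 0.34 (SE 0.10, edgeR adjusted p = 0.071), and Bax passed with DESeq2 (adjusted p = 0.029), without wildtype 4 (0.43, adjusted p = 0.0066) and without the 3 libraries low in proximal tubule transcripts (0.25, adjusted p = 0.043). The receptor for TRAIL, Tnfrsf10b, was at 11.7 ± 0.645 in Grhl2KO_Myc and 9.90 ± 0.770 CPM in wildtype with no overlap (adjusted p = 0.12), and the death receptor Fas was at 3.59 ± 0.698 in Grhl2KO_Myc and 4.30 ± 1.02 CPM in wildtype (adjusted p = 0.41). The pro-apoptotic genes Bbc3 (8.30 ± 1.44 in Grhl2KO_Myc and 7.32 ± 0.962 CPM in wildtype) and Pmaip1 (4.80 ± 1.59 in Grhl2KO_Myc and 5.03 ± 1.03 CPM in wildtype) overlapped between the groups, as did the membrane protein gene Perp (24.3 ± 7.56 in Grhl2KO_Myc and 22.1 ± 5.02 CPM in wildtype) and the Akt inhibitor gene Phlda3 (26.7 ± 1.79 in Grhl2KO_Myc and 27.4 ± 1.62 CPM in wildtype). Eda2r, the ectodysplasin receptor, was at 1.66 ± 0.486 in Grhl2KO_Myc and 1.20 ± 0.159 CPM in wildtype (adjusted p = 0.22). The scaffold gene Pidd1 (17.7 ± 1.13 in Grhl2KO_Myc and 16.2 ± 2.07 CPM in wildtype) and the endoplasmic reticulum gene Ei24 (119.7 ± 3.04 in Grhl2KO_Myc and 116.0 ± 3.49 CPM in wildtype) did not pass either.

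Of the 4 metabolic and stress members Tigar alone passed, where 6.67% of all tested genes passed. The same share applies to the 5 DNA repair members below, and counts over so few genes say little. Sesn1, which restrains mTORC1 signalling, was at 39.7 ± 2.72 in Grhl2KO_Myc and 45.9 ± 4.28 CPM in wildtype (log2 fold change -0.21, edgeR adjusted p = 0.12) and passed with the proximal tubule markers as a covariate (-0.29, adjusted p = 0.0076). The secreted stress factor Gdf15 was at 2.99 ± 0.757 in Grhl2KO_Myc and 2.51 ± 0.541 CPM in wildtype (adjusted p = 0.47). Dcxr, a carbonyl and xylulose reductase, was at 40.3, 39.8, 23.9 and 25.9 CPM in Grhl2KO_Myc libraries 1 to 4, against 36.7, 41.8, 41.1, 29.4 and 44.1 CPM in wildtype libraries 1 to 5, lowest in the 3 libraries low in proximal tubule transcripts. Of the 5 DNA repair members 0 passed, with log2 fold changes between -0.16 and 0.078: the damage sensors Xpc (54.3 ± 1.53 in Grhl2KO_Myc and 54.0 ± 2.51 CPM in wildtype) and Ddb2 (27.3 ± 0.591 in Grhl2KO_Myc and 27.0 ± 1.55 CPM in wildtype), the excision nuclease Ercc5 (31.7 ± 1.40 in Grhl2KO_Myc and 30.0 ± 1.42 CPM in wildtype), the ribonucleotide reductase subunit Rrm2b (25.0 ± 1.09 in Grhl2KO_Myc and 24.2 ± 2.31 CPM in wildtype) and the bypass polymerase Polk (11.5 ± 0.613 in Grhl2KO_Myc and 12.9 ± 0.781 CPM in wildtype). Ddb2 shares 652 bases of exons with Acp2 on the other strand, so their reads cannot be told apart there. Exons of Cdkn1a, Gadd45a, Plk3, Ei24 and Rrm2b overlap antisense genes by 84 to 734 bases in the same way, and Bax shares 192 bases with Gm45808 on its own strand.

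Groups that did not overlap were seen for 5 members, all higher in Grhl2KO_Myc (Trp53, Aen, Tigar, Zmat3 and Tnfrsf10b), and for 0 lower ones. Of all tested genes 9.47% did not overlap, 5.67% higher and 3.81% lower. Most markers of tubule cell types lay below 0 in the same comparison. Of the 20 proximal tubule markers 20 were below 0, with a median log2 fold change of -0.65 and 2 called lower. Their sums were 1589 to 3921 CPM in Grhl2KO_Myc and 1475 to 5662 CPM in wildtype libraries. The 4 distal convoluted tubule markers summed to 222 to 393 CPM in Grhl2KO_Myc and 391 to 546 CPM in wildtype libraries, with a median of -0.74, 4 of 4 at an unadjusted p under 0.05 and 0 called. The 5 thick limb markers summed to 687 to 959 CPM in Grhl2KO_Myc and 750.0 to 1352 CPM in wildtype libraries, with a median of -0.41 and 0 called. The 6 intercalated cell markers summed to 85.6 to 99.6 CPM in Grhl2KO_Myc and 66.0 to 98.2 CPM in wildtype libraries, with 1 called higher and 1 lower. The 7 leukocyte markers detected, of 8 listed, summed to 109 to 136 CPM in Grhl2KO_Myc and 88.1 to 120 CPM in wildtype libraries, with 1 of 7 called higher. The 5 podocyte markers summed to 638 to 705 CPM in Grhl2KO_Myc and 862 to 939 CPM in wildtype libraries, with 2 of 5 called lower. The 6 endothelial markers summed to 467 to 497 CPM in Grhl2KO_Myc and 528 to 582 CPM in wildtype libraries, with 3 of 6 called lower. The 8 principal cell markers, of the collecting duct where HoxB7-Cre acts, summed to 628 to 765 CPM in Grhl2KO_Myc and 554 to 944 CPM in wildtype libraries, with 2 of 8 called lower. The 6 tubular injury genes summed to 352 to 720 CPM in Grhl2KO_Myc and 420 to 796 CPM in wildtype libraries, with 0 called. Proximal tubule content entered only the alternatives with its markers as a covariate or without the 3 libraries low in them. Beyond those alternatives, the part of these cell types in the member values was not tested.

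**Figure D3:**
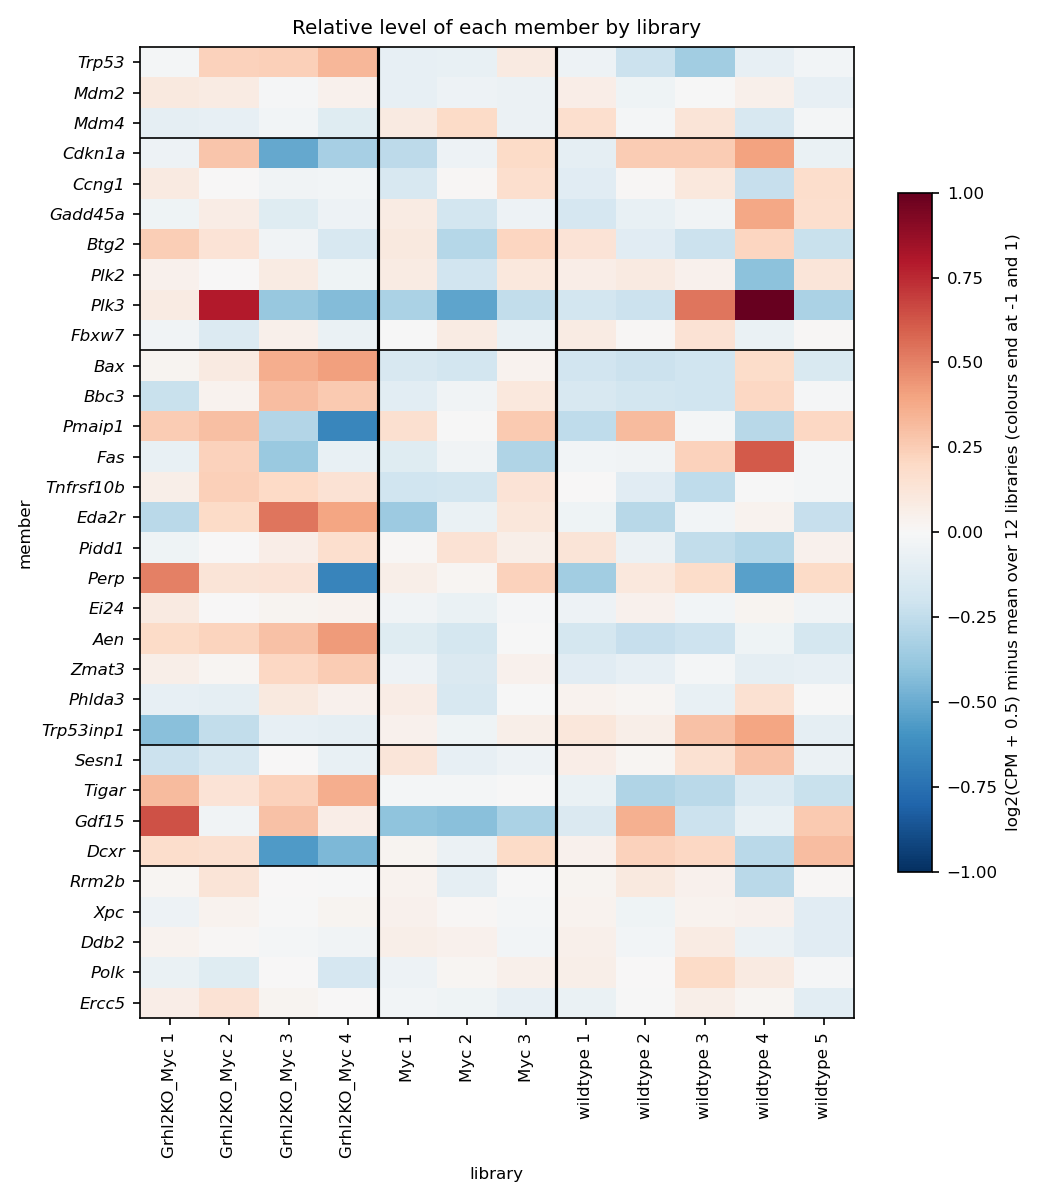
Each member in each library as log2(CPM + 0.5) minus its mean over the 12 libraries, rows ordered by role and black lines between groups and roles; the colour scale ends at -1 and 1. Aen and Tigar are red in all 4 Grhl2KO_Myc libraries, the DNA repair rows are pale throughout, and Plk3 in wildtype 4 lies beyond the end of the scale.

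The second comparison set Grhl2KO_Myc against Myc kidneys and bears on the knockout, as far as the labels tell. If HET stands for a Grhl2 genotype, the Myc kidneys are not a reference with intact Grhl2. This comparison shares the 4 Grhl2KO_Myc libraries with the first. Aen was the only member that passed, 1 of 32 (3.12%) where 0.842% of all tested genes passed (0.358% higher, 0.484% lower). It was at 29.6, 28.5 and 32.2 CPM in Myc libraries 1 to 3, all below the lowest Grhl2KO_Myc library at 36.9 CPM. Aen rose 1.31-fold (39.4 ± 2.90 in Grhl2KO_Myc and 30.1 ± 1.90 CPM in Myc, log2 fold change 0.39, SE 0.071, edgeR adjusted p = 0.027). The call was lost without Myc 1 (adjusted p = 0.14), Myc 2 (0.16), Myc 3 (0.051), Grhl2KO_Myc 3 (0.077) or Grhl2KO_Myc 4 (0.071) and in a fit of only these 2 groups (0.051). The median log2 fold change was 0.026 over the members and 0.0023 over all genes tested. Intercalated cell markers summed to 85.6 to 99.6 CPM in Grhl2KO_Myc and 114 to 139 CPM in Myc libraries, with 2 of 6 called lower. Of the 8 principal cell markers 2 were called lower. The distal convoluted tubule sums were 222 to 393 CPM in Grhl2KO_Myc and 401 to 455 CPM in Myc libraries, and the thick limb sums were 687 to 959 CPM in Grhl2KO_Myc and 1012 to 1260 CPM in Myc libraries, neither with overlap nor with a called marker. Proximal tubule markers summed to 1589 to 3921 CPM in Grhl2KO_Myc and 3636 to 4910 CPM in Myc libraries, with 19 of 20 below 0, a median of -0.62 and 0 called. Aen also passed with the proximal tubule markers as a covariate and without the 3 libraries low in them. Beyond those alternatives, the part of these cell types in the level of Aen was not tested.

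Tigar was at 9.24 ± 0.672 CPM in Grhl2KO_Myc and at 7.50, 7.53 and 7.61 CPM in Myc libraries 1 to 3, with no overlap (log2 fold change 0.29, SE 0.086, edgeR adjusted p = 0.16). Gdf15 was at 4.03, 2.33, 3.05 and 2.54 CPM in Grhl2KO_Myc libraries 1 to 4, against 1.69, 1.68 and 1.83 CPM in Myc libraries 1 to 3. Its log2 fold change was 0.78 (SE 0.21, edgeR adjusted p = 0.13), and DESeq2 called both Gdf15 (adjusted p = 0.019) and Tigar (adjusted p = 0.039). Trp53 was at 123 ± 12.2 in Grhl2KO_Myc and 106 ± 7.37 CPM in Myc (adjusted p = 0.33), with Myc 3 at 114 CPM above Grhl2KO_Myc 1 at 105.8 CPM. Mdm2 was at 57.0 ± 1.94 in Grhl2KO_Myc and 52.6 ± 0.541 CPM in Myc with no overlap (log2 fold change 0.12, 95% interval 0.010 to 0.22, adjusted p = 0.32). Cdkn1a was at 38.1 ± 9.45 in Grhl2KO_Myc and 40.7 ± 6.48 CPM in Myc (log2 fold change -0.09, 95% interval -0.49 to 0.30, adjusted p = 0.86). Groups did not overlap for 7 members, 6 higher (Mdm2, Ei24, Aen, Tigar, Gdf15 and Ercc5) and 1 lower (Trp53inp1), or 7 of 32. Of all tested genes 16.8% did not overlap, 8.95% higher and 7.89% lower.

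The third comparison, Myc against wildtype, bears on Myc overexpression. If HET stands for a Grhl2 genotype, the effects of the 2 genes cannot be told apart here. The comparison shares the wildtype libraries with the first and the Myc libraries with the second. No member passed: edgeR, DESeq2 and limma-voom each called 0 of 32, where edgeR called 0.00421% of all tested genes. At an unadjusted p under 0.05 there were 2 of 32, Tigar and Gdf15, where 4.62% of all tested genes had such a p. Trp53 was at 101, 102 and 114 CPM in Myc libraries 1 to 3, within the upper part of the wildtype range or above it (log2 fold change 0.12, SE 0.088, 95% interval -0.069 to 0.32). Tigar was at 7.55 ± 0.0564 in Myc and 6.58 ± 0.477 CPM in wildtype kidneys, with every Myc library above every wildtype library (log2 fold change 0.20, SE 0.082, edgeR unadjusted p = 0.032, adjusted p = 1.00). Gdf15 was at 1.73 ± 0.0837 in Myc and 2.51 ± 0.541 CPM in wildtype and Fas was at 3.33 ± 0.354 in Myc and 4.30 ± 1.02 CPM in wildtype, with every Myc library below every wildtype library for both genes. These were the 3 members without overlap, or 3 of 32. Of all tested genes 3.57% did not overlap, 2.22% higher and 1.34% lower. Aen was at 30.1 ± 1.90 in Myc and 28.7 ± 1.50 CPM in wildtype (95% interval of the log2 fold change -0.077 to 0.22), and the interval of Cdkn1a was -0.58 to 0.19. Intercalated cell markers summed to 114 to 139 CPM in Myc and 66.0 to 98.2 CPM in wildtype libraries, and podocyte markers to 688 to 837 CPM in Myc and 862 to 939 CPM in wildtype libraries, with 0 called in either list.

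For Tigar the means followed the order Grhl2KO_Myc, Myc, wildtype with no library out of place between groups. Trp53 and Aen followed the same order of means, as did Zmat3, Bax, Bbc3, Tnfrsf10b, Eda2r, Btg2 and Plk2. Apart from Tigar, the Myc and wildtype libraries of these genes overlapped and did not differ beyond their spread. Trp53 also overlapped between Grhl2KO_Myc and Myc libraries. The share of all genes with this order was not counted.

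Other genes of the pathway, listed apart from the members, moved in both directions in Grhl2KO_Myc against wildtype. Of 26 regulators of p53, 25 were tested, 2 rose and 2 fell. This was 16% of those tested, where 6.67% of all tested genes passed (4.06% higher, 2.61% lower). The risers were Gnl3 (67.1 ± 2.33 in Grhl2KO_Myc and 47.5 ± 4.71 CPM in wildtype, log2 fold change 0.50, SE 0.071, edgeR adjusted p = 0.0016) and Npm1 (739 ± 63.0 in Grhl2KO_Myc and 554 ± 58.1 CPM in wildtype, adjusted p = 0.012), both nucleolar proteins known to bind Mdm2. Gnl3 was at 66.1, 64.9, 67.1 and 70.3 CPM in Grhl2KO_Myc libraries 1 to 4, against 45.5, 43.2, 48.1, 55.3 and 45.2 CPM in wildtype libraries 1 to 5. The lower genes were Ppp1r13b (40.8 ± 2.01 in Grhl2KO_Myc and 50.1 ± 0.711 CPM in wildtype, adjusted p = 0.0031) and Trp53bp2 (72.8 ± 2.19 in Grhl2KO_Myc and 81.6 ± 2.44 CPM in wildtype, adjusted p = 0.029), which encode the p53-binding proteins ASPP1 and ASPP2 that steer p53 towards cell death genes. Gnl3, Npm1 and Ppp1r13b were called in all 23 alternatives. Trp53bp2 was called in 13 and lost without Grhl2KO_Myc 1, 3 or 4, without wildtype 2 or 3 and without the 3 libraries low in proximal tubule transcripts, among others. The ribosomal proteins Rpl5 (997 ± 36.6 in Grhl2KO_Myc and 825 ± 130 CPM in wildtype, adjusted p = 0.12) and Rpl11 (496 ± 31.4 in Grhl2KO_Myc and 413 ± 75.5 CPM in wildtype, adjusted p = 0.18), which can inhibit Mdm2, did not pass. Cdkn2a, which encodes the Mdm2 inhibitor Arf, was too low to be tested, at 0.0568 ± 0.0172 CPM in Grhl2KO_Myc and 0.0440 ± 0.0186 CPM in wildtype kidneys.

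Of 27 further genes reported as p53-induced 2 rose and 2 fell, or 14.8%, where 6.67% of all tested genes passed. The mitochondrial reductase Fdxr (12.1 ± 1.01 in Grhl2KO_Myc and 9.88 ± 0.776 CPM in wildtype, edgeR adjusted p = 0.044) and the ribosomal protein homologue Rps27l (65.2 ± 1.41 in Grhl2KO_Myc and 56.0 ± 3.65 CPM in wildtype, adjusted p = 0.041) rose. The tetraspanin Cd82 (44.9 ± 2.98 in Grhl2KO_Myc and 55.9 ± 1.73 CPM in wildtype, adjusted p = 0.0037) and the phosphatase Ptprv (4.40 ± 0.822 in Grhl2KO_Myc and 6.87 ± 1.06 CPM in wildtype, adjusted p = 0.022) fell. Cd82 was called in all 23 alternatives, and Ptprv in 20, lost without Grhl2KO_Myc 3 or wildtype 1. Fdxr was called in 7 alternatives and Rps27l in 10. Among single libraries left out, Fdxr stood only without Grhl2KO_Myc 2 or wildtype 4, and Rps27l only without Myc 1, Myc 3 or wildtype 4. Neither stood without the 3 libraries low in proximal tubule transcripts. The median log2 fold change of these 27 was 0.0052. Of 20 cell cycle genes that are known to be repressed when p53 is active, Mki67, a proliferation marker, alone passed (5% of the list). It was at 184 ± 15.8 in Grhl2KO_Myc and 227 ± 13.9 CPM in wildtype (log2 fold change -0.30, SE 0.069, edgeR adjusted p = 0.024). In this list 16 of 20 were below 0, with a median of -0.15, and 4 were above 0, where 48.5% of all tested genes were. The 4 above 0 were Mcm2, Mcm5, Mcm6 and E2f1. Sums over the 20 genes overlapped between the groups, at 1202 to 1580 CPM in Grhl2KO_Myc and 1333 to 1608 CPM in wildtype libraries. Mki67 was called in 18 of 23 alternatives, and the count fell to 0 without Grhl2KO_Myc 1, 2 or 3 or wildtype 1. It was 13 lower with the proximal tubule markers as a covariate, where 1038 of all genes were called lower against 619 without the covariate. It was 5 lower without the 3 libraries low in proximal tubule transcripts, where 1105 of all genes were called lower. In Grhl2KO_Myc against Myc and in Myc against wildtype 0 genes of these 3 lists (25, 27 and 20 tested) passed with edgeR. At an unadjusted p under 0.05 there were 12 and 5 over the 3 lists. Of all tested genes 13.3% and 4.62% had such a p in these 2 comparisons. DESeq2 called 5 and 0 genes of the lists.

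**Figure D4:**
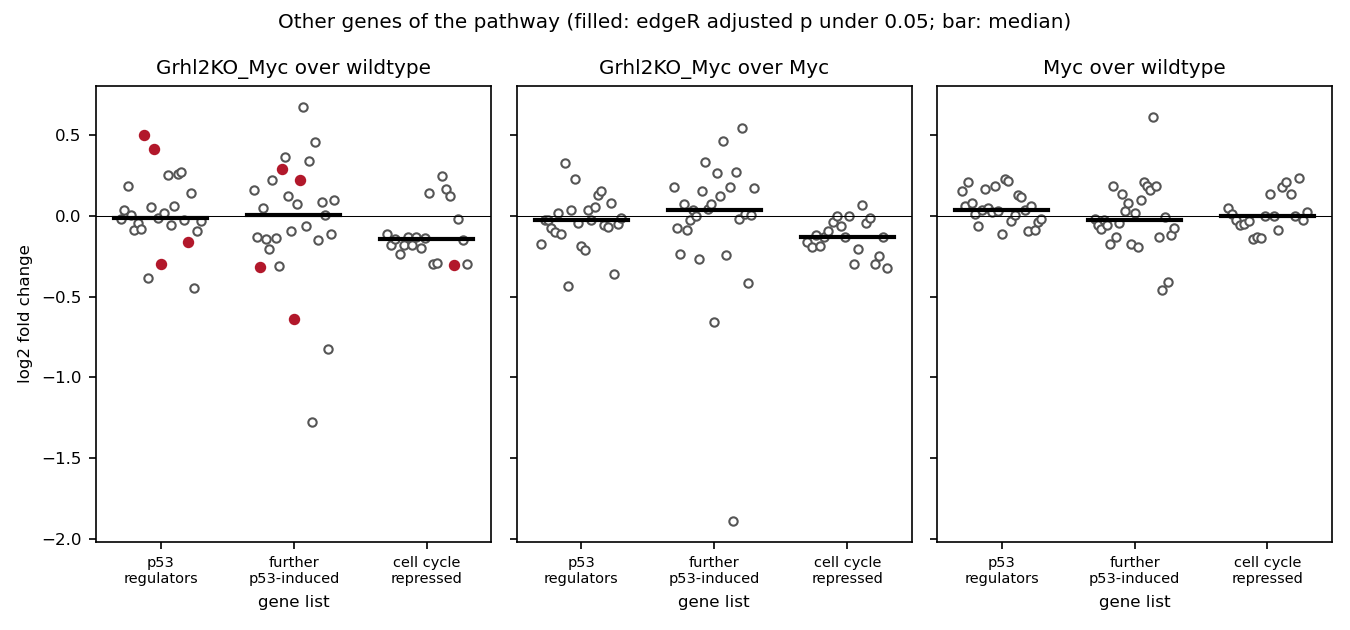
Log2 fold changes of 25 tested regulators of p53, 27 further p53-induced genes and 20 cell cycle genes in 3 comparisons; points are genes, filled red points have an edgeR adjusted p under 0.05 and bars are medians. Filled points are seen on the left only, on both sides of 0, and the cell cycle median lies below 0 in both comparisons of Grhl2KO_Myc.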

How the data were processed

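Libraries were made from polyadenylated RNA with the TruSeq RNA kit version 2, per the labels' protocols. Reads were aligned with HISAT2 to mm10, per the submitters' processing notes; no source used here names its version, the counting program, the annotation or the treatment of reads with several matches. The authors deposited raw counts per gene for 12 libraries, with a gene width in bases, and 0 columns belonged to other samples. Replicates of a group differed by more than sampling noise (smallest chi-square per degree of freedom 13.5).

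Differential expression was tested with edgeR 4.0.16 in R 4.3.3 on the counts (TMM scaling, default expression filter, quasi-likelihood F test), with all 12 libraries in 1 fit, 1 coefficient per group and Benjamini-Hochberg adjustment over 23742 genes at 0.05. SEs were derived from the fold change and its F statistic. Scripts were tested on simulated data. Alternatives used DESeq2 1.42.0 and limma 3.58.1 (voom), other scalings, filters, covariates and libraries left out. Positions come from GENCODE M21 and promoters from RefSeq GRCm38.p6.

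Values in every library were given for Trp53, Cdkn1a, Mdm2 and each member called in any comparison, and for called genes of the other lists up to 4 per comparison were named. Bax, Dcxr, Gdf15 and Plk3 were given by library after their values were seen, and the E-box was added then. Members and lists were chosen with earlier results of these data known. Members were counted with p adjusted over all genes, with no test of the list.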

Additional observations from a re-analysis of the deposited data

Results flagged for a closer look

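In wildtype 4 the level of 3 members stood apart from the other wildtype libraries. Bax was at 40.8 CPM, against 30.7 to 32.1 CPM in the other 4. Plk2 was at 36.7 CPM, against 50.4 to 53.3 CPM, and Rrm2b at 20.2 CPM, against 24.6 to 26.1 CPM. The 32 members in the Grhl2KO_Myc and wildtype groups made 64 sets of libraries, 3 of which held such a library, and chance gives about 1 in 20. Wildtype 4 is also 1 of the 3 libraries low in proximal tubule markers, and its part in these values was not tested.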

How the results depend on the processing

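Across 23 alternatives, Aen and Tigar kept their rise and their call in Grhl2KO_Myc against wildtype, and Mdm2 was called in none of the comparisons. In that comparison 5 members passed; 3 passed with no filter, 2 in a fit of only the groups compared, 2 with a Ddx3y term and 2 to 6 with single libraries left out (6 without wildtype 4). In Grhl2KO_Myc against Myc, 1 member passed, 3 with DESeq2, 0 with only the groups compared, 0 with the replicate block and 0 to 1 with single libraries left out. Against wildtype, 9 genes of the pathway lists passed in Grhl2KO_Myc, 5 with the replicate block, 24 with the proximal tubule covariate, 14 without the 3 libraries low in proximal tubule transcripts and 4 to 12 with single libraries left out. Against Myc, 0 passed, 5 with DESeq2, 1 with only the groups compared, 2 with the proximal tubule covariate, 2 without those 3 libraries and 0 to 4 with single libraries left out. Over all genes, 1584 passed in Grhl2KO_Myc against wildtype, 2703 with DESeq2, 995 with only the groups compared, 993 with the replicate block, 998 with the Ddx3y term and 750 to 3778 with single libraries left out. Against Myc 200 passed, 777 with DESeq2, 88 with the replicate block, 318 without those 3 libraries and 70 to 703 with single libraries left out. In Myc against wildtype 1 gene passed, 44 with DESeq2, 0 with limma-voom, only the groups compared, the replicate block or the Ddx3y term, and 0 to 6 with single libraries left out. Signs reversed for members that were not called: Cdkn1a to 0.023 in Grhl2KO_Myc against wildtype and to 0.15 against Myc without the 3 libraries. With single libraries left out Cdkn1a ranged from -0.26 (without Grhl2KO_Myc 2) to 0.025 (without Myc 3) in Grhl2KO_Myc against Myc, also above 0 without Grhl2KO_Myc 3. Zmat3 ranged from -0.023 (without Myc 3) to 0.075 (without Myc 2) in Myc against wildtype. The cause of these changes was not tested. With the replicate block Bax passed (adjusted p = 0.032) in Grhl2KO_Myc against wildtype, Trp53 (0.056), Zmat3 (0.071), Trp53bp2, Fdxr, Ptprv and Mki67 did not, and Aen did not pass against Myc (0.060). Same-numbered libraries share only a number: of 10 same-numbered pairs 1 had a correlation of deviations above 0.1 (range -0.11 to 0.23), and 3 of 12 libraries correlated best with their own number.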
